A study of Mus musculus with 8 samples.

Results

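The genes examined here are 9 genes of the myelin sheath, Mbp, Mog, Mag, Cnp, Mobp, Mal, Cldn11, Ugt8a and Omg, out of 35513 named genes on the array. They were taken by name from the array's own gene column, and each gene was read by the probe with the highest mean signal. RNA came from neurospheres, which are spheres of neural progenitors in suspension. They were derived from EB3, a mouse embryonic stem cell line, by way of embryoid bodies made in the presence of the BMP antagonist Noggin. Tertiary neurospheres (P2) and primary neurospheres (P0) were measured, both grown in FGF2. At each passage there were 4 lentiviral conditions, shNr2f1/2 (an shRNA against both Nr2f1 and Nr2f2), shCont (an shRNA against firefly luciferase), miR-17 and miRCont (a lacZ control). Every group carried a lentivirus, added when the embryoid bodies were dissociated, and no untransduced culture is included. Each of the 8 groups was 1 array, so 2 conditions at 1 passage were compared with no replicate check, while the passages were compared over 4 arrays each. Whether the cultures were independent is not stated in the labels, and p-values measure only the spread between these arrays. All 8 neural stem and progenitor markers examined, among them Fabp7, Nes and Vim, were well above background on all 8 arrays. So were all 10 neuron markers and all 6 fibroblast and meningeal markers, so detection alone does not set progenitors apart.

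Myelin is the membrane that oligodendrocytes wrap around axons in the central nervous system. Its compaction depends on basic proteins of the cytoplasmic face, its outer face carries adhesion molecules that meet the axon, and its lipids are rich in galactolipids. Oligodendrocytes arise from neural progenitors late in development, after most neurons, and pass through a precursor stage before the myelin genes are switched on. The series concerns the temporal competence of neural progenitors, in which Nr2f1 and Nr2f2, nuclear receptors also called COUP-TFI and COUP-TFII, and miR-17 are the manipulated factors. RNA of a whole culture cannot tell fewer cells of a type from less RNA per cell.

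Promoter windows of 7 of the 9 genes, all but Mbp and Omg, were matched in the RefSeq table of build GRCm38.p6, each running from 250 bases before to 50 bases after a transcript start. The letters ACAAAG, a core of the sites bound by SOX factors such as SOX10, a regulator of myelin genes, were searched on both strands and are shown in capitals below (CTTTGT on the opposite strand). They occurred in 4 of the members' 9 windows, against 18.7% of 32851 promoter windows. These were windows of 3 genes, Mobp with 6 matches and Mag and Cnp with 1 each. Mag has 3 windows, and the 2 that overlap hold the same match. No window other than that of Mobp held 6 or more. The other SOX core ACAATG (in 12.6% of all windows), the E-box CAGCTG (16.3%) and the nuclear receptor half-site AGGTCA (16.3%) were not among the letters of the members' windows. The windows of the 3 genes with a match are given with that of Mal, which had none. Mobp lies at chr9:120149492-120149791 on the plus strand, Mag at chr7:30914814-30915113 on the minus strand, Cnp at chr11:100574689-100574988 on the plus strand and Mal at chr2:127656646-127656945 on the minus strand.
Mobp: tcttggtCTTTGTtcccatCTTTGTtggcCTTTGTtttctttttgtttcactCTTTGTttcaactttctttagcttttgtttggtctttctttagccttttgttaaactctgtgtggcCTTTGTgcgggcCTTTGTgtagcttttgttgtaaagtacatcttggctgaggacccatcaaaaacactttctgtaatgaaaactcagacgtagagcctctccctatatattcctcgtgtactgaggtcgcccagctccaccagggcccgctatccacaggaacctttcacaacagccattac
Mag: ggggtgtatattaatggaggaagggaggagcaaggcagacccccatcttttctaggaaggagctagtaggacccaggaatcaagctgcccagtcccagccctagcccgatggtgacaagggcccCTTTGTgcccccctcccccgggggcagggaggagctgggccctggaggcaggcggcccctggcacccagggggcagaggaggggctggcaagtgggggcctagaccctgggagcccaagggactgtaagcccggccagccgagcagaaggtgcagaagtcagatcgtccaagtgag
Cnp: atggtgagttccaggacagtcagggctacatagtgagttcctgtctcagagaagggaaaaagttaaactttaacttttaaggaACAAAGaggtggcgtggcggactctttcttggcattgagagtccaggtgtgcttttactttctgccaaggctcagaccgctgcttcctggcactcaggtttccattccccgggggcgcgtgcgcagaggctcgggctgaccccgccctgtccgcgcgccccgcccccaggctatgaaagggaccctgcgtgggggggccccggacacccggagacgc
Mal: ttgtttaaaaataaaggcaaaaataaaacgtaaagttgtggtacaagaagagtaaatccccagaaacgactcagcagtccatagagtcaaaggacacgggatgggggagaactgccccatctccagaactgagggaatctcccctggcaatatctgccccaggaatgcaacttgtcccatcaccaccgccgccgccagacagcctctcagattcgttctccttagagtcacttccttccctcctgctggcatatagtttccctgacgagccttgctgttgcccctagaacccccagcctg
These matches describe the letters of the windows and not binding. All 4 of these genes had more signal in P2 than in P0 neurospheres of 3 conditions, as given next.

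The first comparison asked how the myelin genes differed between tertiary and primary neurospheres. By signal, 7 of the 9 genes were at least 2-fold higher in the P2 than in the P0 array of shCont, miR-17 and miRCont, and in shNr2f1/2 only Cnp and Omg were. Counts at 2-fold take dim signals as measured, for members and all genes alike; with dim signals as bounds, the shCont count was 6, without Mobp. In the fit over all 4 pairs of arrays Cnp and Omg rose, and Mal, Mobp, Mag, Cldn11 and Ugt8a had differences of 2.79 to 7.11 on the log2 scale that did not pass the test. Mog and the main Mbp probe differed little. Signals are given as multiples of the array's own upper quartile of signal, and each gene's probe has its own scale, so levels of different genes are not compared.

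Cnp encodes the enzyme CNPase, found in the cytoplasmic channels of myelin and on early in the lineage, and its probe lies at chr11:100442617-100442676 (build mm9, as are all probe positions). The Cnp signal was 0.731, 8.48, 43.8 and 35.0 in the P2 arrays of shNr2f1/2, shCont, miR-17 and miRCont, against 0.128, 0.151, 0.271 and 0.344 in the P0 arrays of those conditions. Every P2 array lay above every P0 array. Cnp rose by 5.58 ± 0.83 on the log2 scale (SE, 4 arrays per passage), or 47.9-fold (limma, adjusted p = 0.0408).

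Omg encodes the oligodendrocyte myelin glycoprotein, a surface protein that neurons also make and that inhibits axon growth, and was read at chr11:79314993-79315052. Its signal was 0.173, 2.58, 2.08 and 2.60 in the P2 arrays, in the same order of conditions, against 0.0226, 0.0212, 0.0532 and 0.0140 in the P0 arrays. At P0 only the miR-17 array was well above background, and the passages did not overlap. Omg rose by 5.67 ± 0.80 on the log2 scale (SE, 4 arrays per passage; limma, adjusted p = 0.0376). With dim arrays set at the lowest signal well above background, its P2 mean was at least 34.5-fold higher. This and the other bounds below hold only for the deposited background correction.

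**Figure D1:**
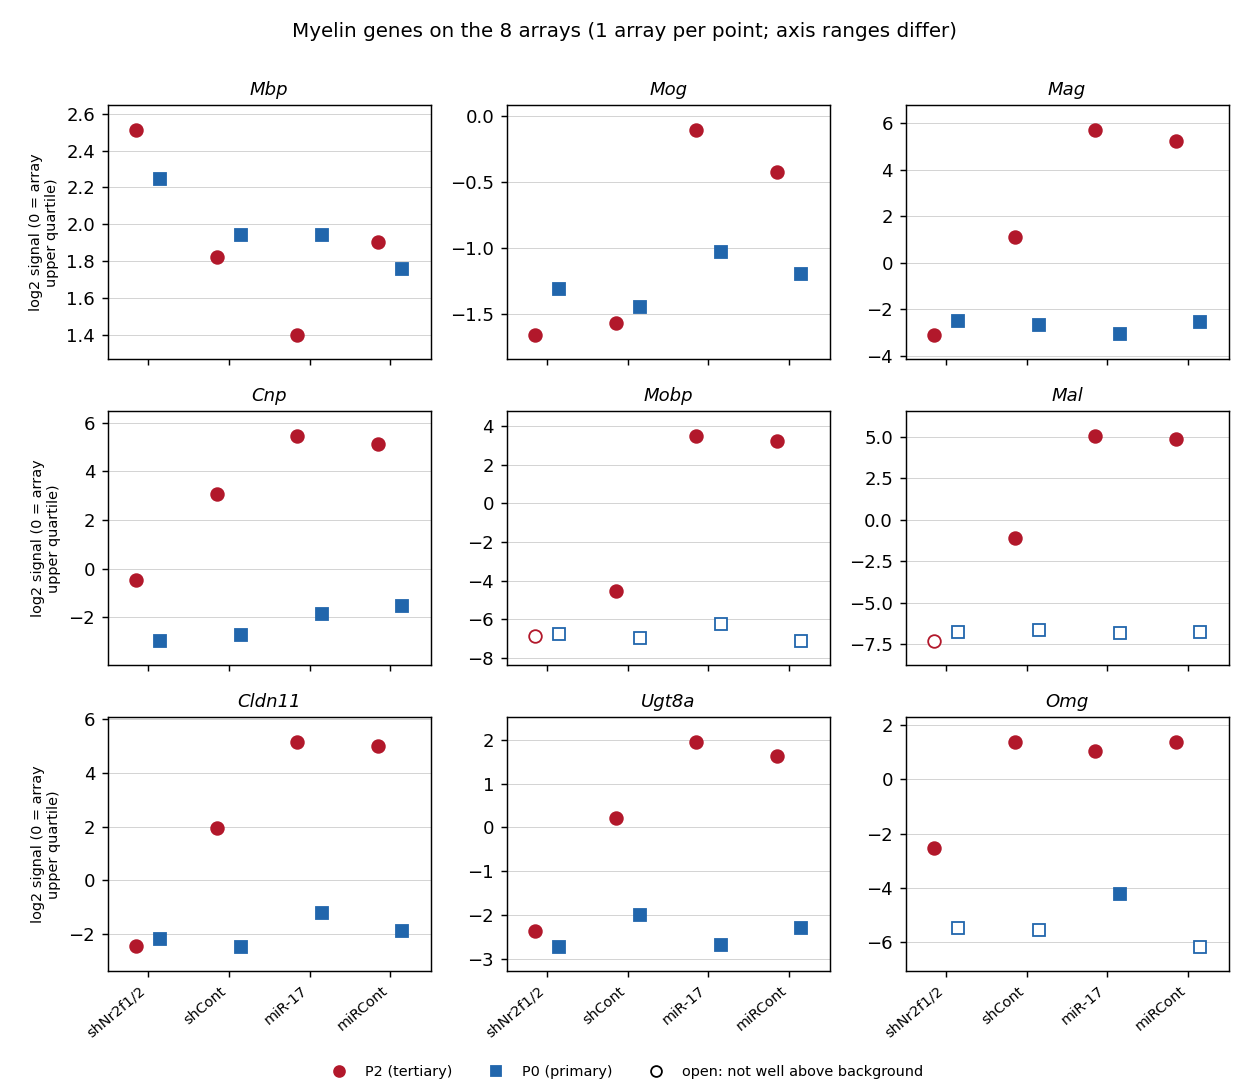
Signal of the 9 myelin genes on each array, as log2 multiples of the array's upper quartile (vertical axis), by condition (horizontal axis), with P2 as circles and P0 as squares, 1 array per point and open symbols where the probe was not well above background. In 7 panels the P2 circles of shCont, miR-17 and miRCont lie above the P0 squares, and in Mbp and Mog the passages overlap.

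Mag encodes the myelin-associated glycoprotein, an adhesion molecule of the innermost wrap facing the axon, and was read at chr7:31684202-31684261. Its signal was 0.117, 2.18, 52.2 and 37.5 in the P2 arrays of shNr2f1/2, shCont, miR-17 and miRCont, against 0.175, 0.156, 0.120 and 0.172 in the P0 arrays. The P2 shNr2f1/2 array was the lowest of all 8, while the other P2 arrays lay above every P0 array. The difference over the passages was 4.94 ± 1.63 on the log2 scale (SE, 4 arrays each; limma, adjusted p = 0.093).

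Mal encodes a proteolipid that sorts cargo into lipid-rich membrane and sits in compact myelin, and was read at chr2:127458976-127459035. The Mal signal was 0.00643, 0.464, 32.7 and 29.5 in the P2 arrays, against 0.00939, 0.0101, 0.0090 and 0.00924 in the P0 arrays. All 4 P0 arrays and the P2 shNr2f1/2 array were not well above background. The mean over the P2 arrays was at least 40.5-fold higher than over the P0 arrays, although Mal was dim at both passages in shNr2f1/2, with a fitted difference of 7.11 ± 2.24 on the log2 scale (SE, 4 arrays each; limma, adjusted p = 0.0873).

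Cldn11 encodes claudin 11, which forms the tight junctions between the lamellae of central myelin, and was read at chr3:31062922-31062981. Its signal was 0.186, 3.90, 35.4 and 32.2 in the P2 arrays of shNr2f1/2, shCont, miR-17 and miRCont, against 0.221, 0.181, 0.433 and 0.270 in the P0 arrays. The P2 shNr2f1/2 array lay within the range of P0, and the other P2 arrays lay above it. The difference was 4.36 ± 1.25 on the log2 scale (SE, 4 arrays each; limma, adjusted p = 0.0762).

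Ugt8a encodes the enzyme that makes galactosylceramide, the main galactolipid of myelin, and was read at chr3:125568995-125569054. The Ugt8a signal was 0.195, 1.15, 3.87 and 3.11 in the P2 arrays, against 0.151, 0.250, 0.155 and 0.204 in the P0 arrays. Each P2 array exceeded the P0 array of its condition, but the P2 shNr2f1/2 array lay below 2 of the P0 arrays. The difference was 2.79 ± 0.75 on the log2 scale (SE, 4 arrays each; limma, adjusted p = 0.070).

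Mobp encodes the myelin-associated oligodendrocyte basic protein, a small protein of the major dense line, and had 3 probes. The probe with the highest mean, A_55_P1958798 at chr9:120085150-120085209, had a signal of 0.00863, 0.0429, 11.2 and 9.45 in the P2 arrays, against 0.00937, 0.00796, 0.0133 and 0.0073 in the P0 arrays. It was not well above background on any P0 array or on the P2 shNr2f1/2 array, and its P2 mean was at least 13.8-fold higher (log2 difference 5.59 ± 2.00, SE, 4 arrays each; limma, adjusted p = 0.106). The 2 other probes also had their highest signals in the P2 miR-17 and miRCont arrays. Probe A_51_P291224, the one nearest the transcript's start (chr9:120077006-120077065), had 0.0307, 0.0379, 2.65 and 2.53 in the P2 arrays, against 0.0398, 0.0297, 0.143 and 0.106 in the P0 arrays. This probe was well above background on 3 of 4 P0 arrays, so the RNA was measurable there, and in the P2 shCont array it lay within the range of P0. Its sequence is given because it is the probe on which Mobp could be followed at P0.
A_51_P291224: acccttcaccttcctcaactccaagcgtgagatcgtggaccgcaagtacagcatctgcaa
Fitted with every probe as its own row, A_51_P291224 differed by 2.19 ± 0.98 and A_55_P1958793 by 2.06 ± 1.27 on the log2 scale (SE, 4 arrays each; limma, adjusted p = 0.159 and 0.268).

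Mog encodes the myelin oligodendrocyte glycoprotein, an adhesion molecule on the outermost surface of myelin that appears late in oligodendrocyte maturation, and was read at chr17:37148277-37148336. The Mog signal was 0.318, 0.338, 0.930 and 0.747 in the P2 arrays of shNr2f1/2, shCont, miR-17 and miRCont, against 0.405, 0.367, 0.490 and 0.437 in the P0 arrays. Both P2 miRNA arrays lay above all P0 arrays and both P2 shRNA arrays below them. The difference over the passages was 0.31 ± 0.29 on the log2 scale (SE, 4 arrays each; limma, adjusted p = 0.456).

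Mbp encodes myelin basic protein, which holds the cytoplasmic faces of the membrane together, and the same gene also gives golli transcripts that cells outside the oligodendrocyte lineage make. Its 3 probes disagreed. The probe with the highest mean, A_52_P604195 at chr18:82727929-82727988, had a signal of 5.70, 3.53, 2.64 and 3.75 in the P2 arrays, against 4.74, 3.85, 3.84 and 3.38 in the P0 arrays, with overlapping passages. Its difference was -0.06 ± 0.22 on the log2 scale (SE, 4 arrays each; limma, adjusted p = 0.844). Probe A_55_P1992160 at chr18:82691469-82691528 likewise differed by -0.22 ± 0.28 (SE, 4 arrays each; limma, adjusted p = 0.571). The third, A_52_P329451, was different. It lies at chr18:82742266-82744570, its 60 bases spread over 2305 bases of the genome, and had a signal of 0.0331, 1.27, 11.8 and 8.82 in the P2 arrays, against 0.0354, 0.0356, 0.0363 and 0.0752 in the P0 arrays. The P2 arrays of shCont, miR-17 and miRCont lay above all P0 arrays and the P2 shNr2f1/2 array below them, as was so for Mag. At P0 it was well above background on 2 arrays. The fitted difference was 5.07 ± 1.40 on the log2 scale (SE, 4 arrays each; limma over every probe, adjusted p = 0.0709). This probe was picked out after its values were seen, and which Mbp transcripts each probe reads was not tested.

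**Figure D2:**
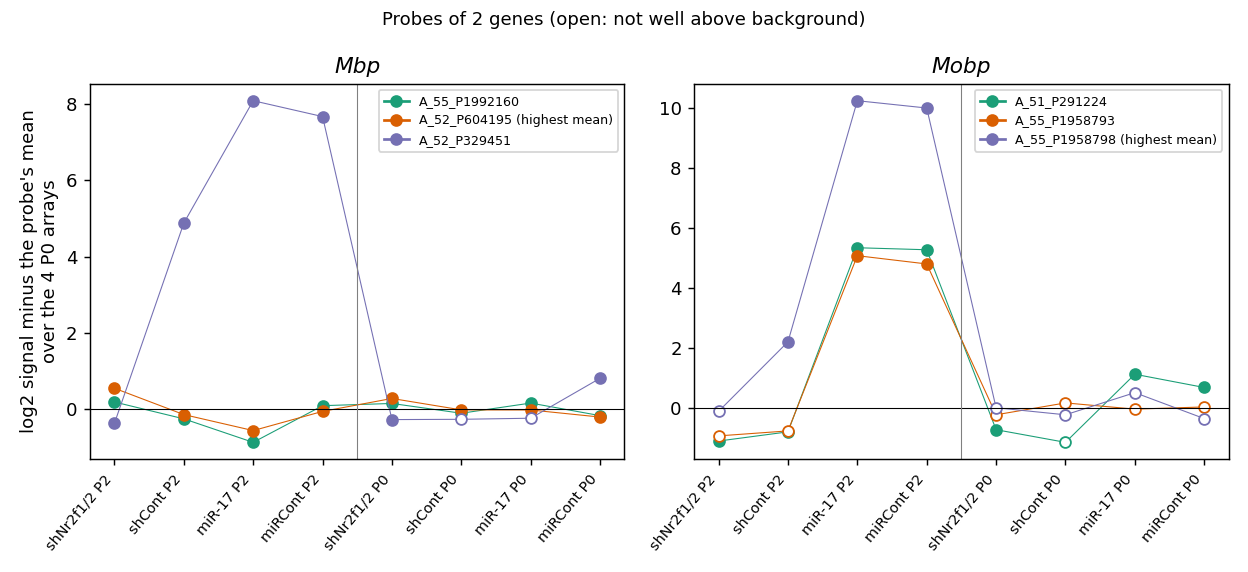
Signal of the 3 probes of Mbp and the 3 of Mobp on each array, as the log2 difference from the probe's own mean over the 4 P0 arrays (vertical axis), with P2 arrays left of P0 arrays, lines joining the arrays of 1 probe and open symbols where it was not well above background. Of the Mbp probes, A_52_P329451 alone lies far above 0 in 3 P2 arrays, while all 3 Mobp probes are high in the P2 miR-17 and miRCont arrays.

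In all, 2 of the 9 genes passed the test of passage, both higher in P2, against 2.61% of the 27120 genes tested that passed in this direction and 2.36% in the other. At an unadjusted p under 0.05 there were 7 genes, a level that 40.1% of all genes reached. Mal and Mobp were among the 7, and both passed the detection filter only through P2 arrays. The members' median difference was 4.94 and that of all genes -0.21 on the log2 scale. Complete separation of the 4 P2 arrays from the 4 P0 arrays occurred in 2 members, Cnp and Omg, and in 9.3% of all genes with P2 above P0. A higher value in P2 in all 4 pairs occurred in 3 members, these and Ugt8a, and in 17.4% of all genes. The call depended on single arrays. Without either array of shCont, miR-17 or miRCont no member and no gene passed in limma, with 3 members and 5796 to 8389 genes at an unadjusted p under 0.05. Without either shNr2f1/2 array 6 members passed, all but Mobp, Mog and Mbp, each higher in P2. Of all genes 17.6% passed there (2184 higher and 2599 lower). The adjusted p in limma was 0.0123 for Cnp and 0.0275 for Mag. Over the 4 miRNA arrays alone 8 members passed, each higher in P2, as did 50.7% of all genes (5242 higher and 8497 lower). Over the 4 shRNA arrays alone no member and no gene passed in limma. There 2 members and 5008 genes had an unadjusted p under 0.05, and the adjusted p was 0.197 for Cnp and 0.198 for Omg.

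Within single conditions the size of the passage difference varied widely. In shNr2f1/2 cultures Cnp was 5.70-fold and Omg at least 6.00-fold higher in P2 (2 of 9 members, against 6.36% of all genes). No member was 2-fold lower there, as 8.19% of genes were. Mag was 1.49-fold lower and Cldn11 1.19-fold lower. In shCont cultures 7 members were at least 2-fold higher (12.9% of genes) and none lower (13.9%), by signal, among them Cnp by 56.3-fold, Cldn11 by 21.5-fold, Mag by 14.0-fold and Omg by at least 80.2-fold. The Mobp probe was dim at P0, and its bound was 1.33-fold, with 1.18-fold for A_51_P291224. The same 7 members were at least 2-fold higher with miR-17 (15.4%) and with miRCont (15.9%), and none was 2-fold lower (28.0% and 28.3%). There Mag was 436-fold higher with miR-17 and 218-fold with miRCont, and Cnp 161-fold and 102-fold. Mal was at least 975-fold and 854-fold higher in those conditions, and the main Mobp probe at least 333-fold and 274-fold. The Mobp probe A_51_P291224, well above background at both passages there, was 18.5-fold higher with miR-17 and 24.0-fold with miRCont. Each of these values compares 1 array with 1 array.

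**Figure D3:**
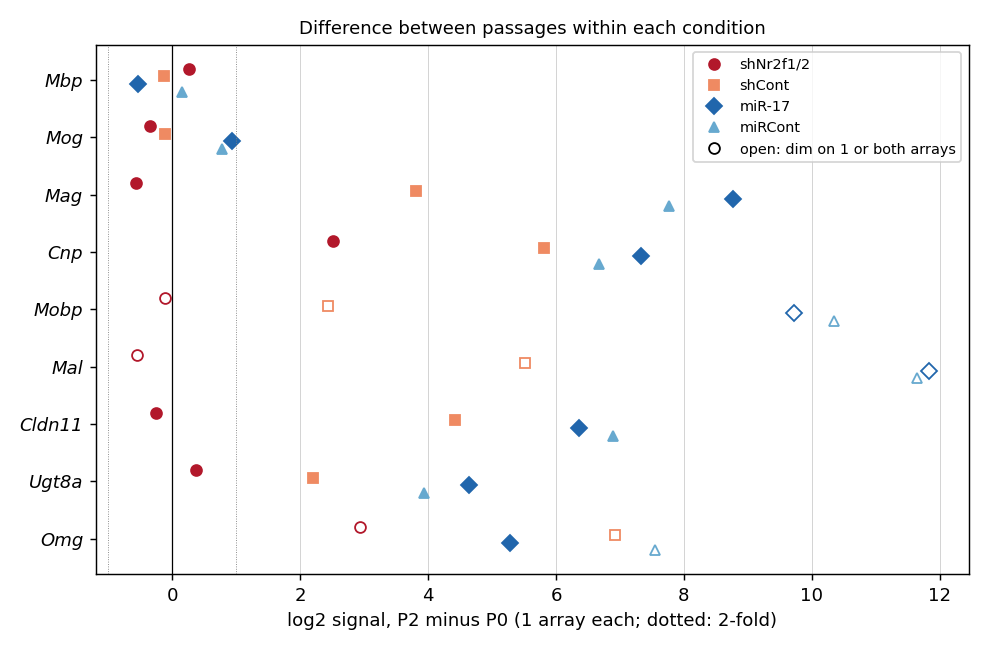
Log2 difference between the P2 and the P0 array of each condition (horizontal axis) for each myelin gene (vertical axis), with open symbols where 1 or both arrays were not well above background and dotted lines at 2-fold. For 7 genes the shCont, miR-17 and miRCont points lie right of the 2-fold line, and the shNr2f1/2 points of Cnp and Omg do as well.

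The second comparison asked what the Nr2f1 and Nr2f2 knockdown did to the myelin genes. The targets were lower with the shRNA, Nr2f1 by 55.6% at P2 and 42.2% at P0, and Nr2f2 by 46.4% at P2 and 29.6% at P0. The control arrays differed from each other by similar amounts, with miRCont minus shCont at 0.77 at P2 and -1.08 at P0 for Nr2f1, and -1.20 at P2 and -1.11 at P0 for Nr2f2, on the log2 scale. The Nr2f2 signal at P2 was 3.15 with shNr2f1/2, 5.88 with shCont and 2.56 with miRCont. At P2, 7 of the 9 myelin genes were at least 2-fold lower in the shNr2f1/2 than in the shCont array, against 9.88% of all genes, and none was 2-fold higher (9.0%). Cldn11 was 21.0-fold lower, Mag 18.6-fold, Omg 14.9-fold, Cnp 11.6-fold and Ugt8a 5.90-fold. Mal was at least 25.3-fold lower and the main Mobp probe at least 2.34-fold. Mobp probe A_51_P291224, measured on both arrays, was 1.24-fold lower, and with normexp background correction the count was 6. Mog differed by -0.09 and the main Mbp probe by 0.69 on the log2 scale. The Mbp probe A_52_P329451 had a signal of 0.0331 with shNr2f1/2, against 1.27 with shCont. At P0 no member was 2-fold lower (1.22% of genes were) and none was 2-fold higher (4.49%). The P0 differences ran from -0.73 to 0.30 on the log2 scale, with Mal, Omg and the main Mobp probe dim on both arrays.

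Averaged over both passages, no member and no gene passed the test of knockdown in limma, with 517 genes and no member at an unadjusted p under 0.05. A second fit set the passage difference in shNr2f1/2 against the mean of those in shCont and miRCont, not against shCont alone. For Mag the differences were -0.58 in shNr2f1/2, 3.81 in shCont and 7.77 in miRCont on the log2 scale. This interaction of knockdown with passage, with 1 residual degree of freedom, called no gene either (smallest adjusted p in limma 0.9998). At an unadjusted p under 0.05 it had 5 of the 9 members, Omg, Cnp, Cldn11, Mag and Mal, against 3.95% of all genes. For Omg the interaction was -4.30 ± 0.73 on the log2 scale (SE; limma, unadjusted p = 0.0041 and adjusted p = 0.9998), and for Cnp -3.73 ± 0.78. The interaction was negative in 8 of the 9 members, whose median was -4.30, against a median of 0.10 over all genes on the log2 scale.

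**Figure D4:**
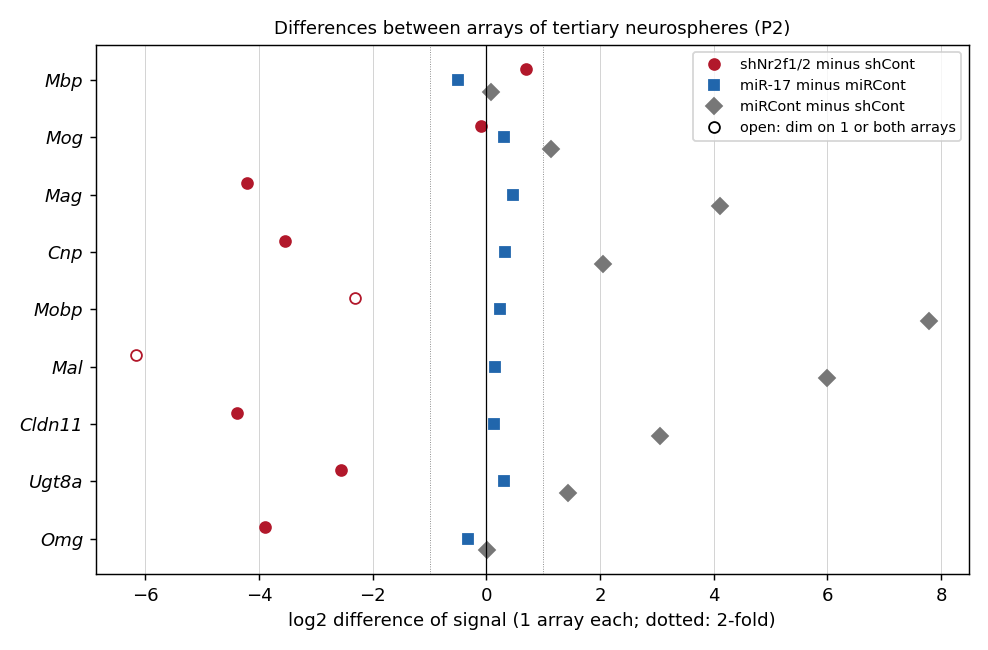
Log2 differences between P2 arrays (horizontal axis) for each myelin gene (vertical axis), shNr2f1/2 minus shCont, miR-17 minus miRCont and miRCont minus shCont, 1 array against 1 array, with open symbols where 1 array was not well above background and dotted lines at 2-fold. The knockdown points of 7 genes lie left of the lower line, the miR-17 points all lie between the lines, and the miRCont minus shCont points of 7 genes lie right of the upper line.

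The third comparison concerned miR-17, a microRNA of the miR-17 and miR-106 family that pairs with target RNAs through its seed. The mature sequence in the RefSeq table is given with the seed, bases 2 to 8, in capitals.
mmu-miR-17-5p: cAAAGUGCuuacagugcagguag
At P2 the myelin genes of the miR-17 array differed from those of the miRCont array by -0.50 to 0.48 on the log2 scale, and none by 2-fold (4.16% of genes were 2-fold higher and 1.94% lower). Mag had a signal of 52.2 with miR-17, against 37.5 with miRCont, and Mbp 2.64, against 3.75. At P0 Omg was at least 1.54-fold higher with miR-17, where it was well above background, than with miRCont, where it was not. By signal it was the 1 member past 2-fold (1.93 on the log2 scale), against 4.6% of genes, which the bound does not reach, and with normexp there was none. No member was 2-fold lower (2.16%). Averaged over the passages, limma called no member and no gene, with 269 genes and no member at an unadjusted p under 0.05. The members' averaged differences ran from -0.16 to 0.80, with standard errors of up to 3.17 on the log2 scale. The interaction of miR-17 with passage was likewise taken against the mean passage difference of both controls. It called none in limma either, with 294 genes and no member at an unadjusted p under 0.05.

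The 2 control conditions differed from each other at P2. In the miRCont array 7 members were at least 2-fold higher than in the shCont array (10.9% of genes), namely Mobp by 220-fold, Mal by 63.5-fold, Mag by 17.2-fold, Cldn11 by 8.26-fold, Cnp by 4.13-fold, Ugt8a by 2.70-fold and Mog by 2.21-fold. The Mobp probe A_51_P291224 was 66.8-fold higher. Omg (1.01-fold) and Mbp (1.06-fold) were close to equal in the 2 arrays. At P0 the miRCont array was 2-fold higher for 1 member, Cnp at 2.28-fold (16.6% of genes), and 2-fold lower for none (5.09%), while the Mobp probe A_51_P291224 was at least 3.28-fold higher. At P2 none was 2-fold lower either (13.7%). From high to low, the order at P2 was miR-17, miRCont, shCont and shNr2f1/2 in 7 members, all but Omg and Mbp. The share of all genes in this order was not worked out, so the count has nothing to be set against. In Mog the signals of shCont and shNr2f1/2 were close, at 0.338 and 0.318. With 1 array per group no neighbours in this order could be tested, and the gap between miR-17 and miRCont was under 2-fold throughout. By their positions in the file headers, the miRNA and shRNA arrays lay on different sides of the slide, and on both sides P0 arrays held positions 1 and 2 and P2 arrays positions 3 and 4. Neither vector system nor passage can therefore be told apart from position on the slide. The knockdown comparison and this one share the shCont array, and so does the passage difference within shCont.

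Other myelin genes were examined as a companion list of 28, of which 27 were tested. Of these, 3 rose with passage and none fell, with a median difference of 2.14 on the log2 scale against -0.21 over all genes. Gpr37, a receptor of oligodendrocytes, rose by 3.59 ± 0.24, Trf (transferrin) by 2.64 ± 0.40 and Cd9 (a tetraspanin) by 2.53 ± 0.46 on the log2 scale (SE, 4 arrays each; limma, adjusted p = 0.0289, 0.0419 and 0.0494). Pllp (plasmolipin), at least 20.4-fold higher in P2, had an adjusted p of 0.0631 in limma. At P2, 14 of the 28 were at least 2-fold lower with shNr2f1/2 than with shCont, among them Plekhb1 by 10.8-fold and Pllp by at least 33.8-fold, and none was 2-fold higher. For this and every companion list, the shares of all genes were 2.61% risen and 2.36% fallen with passage. At P2, 9.88% of all genes were 2-fold lower with shNr2f1/2 and 9.0% higher. Ermn (ermin) and Jam3 differed by -0.27 and -0.26 between the passages, and Hapln2 was well above background on 1 array.

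Among 14 enzymes of myelin lipid metabolism, none passed the test of passage in either direction (limma), with a median of 0.56 on the log2 scale. The differences of Fa2h, which hydroxylates the fatty acids of galactolipids, and Gal3st1, which makes sulfatide, were at least 24.3-fold and 28.8-fold (adjusted p = 0.0605 and 0.069). At P2, 5 of the 14 were at least 2-fold lower with shNr2f1/2, Fa2h by at least 96.3-fold and Gal3st1 by 19.0-fold, and none was higher. Elovl7, which elongates fatty acids, differed by 2.78 ± 0.54 and Degs1, which makes ceramide, by 1.31 ± 0.62 on the log2 scale between the passages (SE, 4 arrays each; limma, adjusted p = 0.0531 and 0.177).

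Of 15 transcription factors that promote the oligodendrocyte lineage, 2 rose and 1 fell with passage, and the list's median was -0.22 on the log2 scale, against -0.21 over all genes. Olig1 rose by 3.85 ± 0.39 and Sox8 by a fitted 5.33 ± 0.63 on the log2 scale (at least 18.1-fold, since it was dim on 3 P0 arrays), and St18 fell by 1.87 ± 0.31 (SE, 4 arrays each; limma, adjusted p = 0.0307, 0.0352 and 0.0442). Sox10, the central activator of myelin genes, had log2 signals of -1.84, 2.70, 3.65 and 3.42 in the P2 arrays, against -2.21, -2.61, -2.44 and -2.37 in the P0 arrays (difference 4.39 ± 1.04, SE, 4 arrays each; limma, adjusted p = 0.0623). Its P2 shNr2f1/2 array was again close to P0. Myrf, which with Sox10 switches on the late myelin program, was well above background in the P2 arrays of shCont, miR-17 and miRCont and in no P0 array. Its log2 signals in those P2 arrays were low, at -4.24, -3.55 and -4.42. The passage difference was 1.24 ± 0.88 (SE, 4 arrays each; limma, adjusted p = 0.324). With dim P0 arrays set at the lowest signal well above background, the bound was 0.953-fold. At P2, 5 of the 15 were at least 2-fold lower with shNr2f1/2, Sox10 by 23.3-fold, Sox8 by 11.4-fold, Olig1 by 4.84-fold, Olig2 by 4.31-fold and Myrf by at least 2.89-fold, and Zfp536 was at least 2-fold higher (1.70 on the log2 scale).

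Markers of oligodendrocyte precursors numbered 15, of which 6 rose with passage and none fell, with a median of 2.30 on the log2 scale. Gpr17, a receptor of the stage just before myelination, rose by 9.92 ± 1.60 on the log2 scale, at least 352-fold (SE, 4 arrays each; limma, adjusted p = 0.0428). Lhfpl3 rose by a fitted 5.63 ± 0.44 (at least 30.0-fold, its probe dim on 3 P0 arrays), Susd5 by 4.44 ± 0.57, Pdgfra (the PDGF receptor of precursors) by 2.30 ± 0.38, Cspg4 (NG2) by 2.11 ± 0.29 and Fyn by 1.35 ± 0.19 on the log2 scale. At P2, 10 of the 15 were at least 2-fold lower with shNr2f1/2, with Gpr17 429-fold, Bcas1 50.8-fold and Pdgfra 4.25-fold lower, and none was higher.

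**Figure D5:**
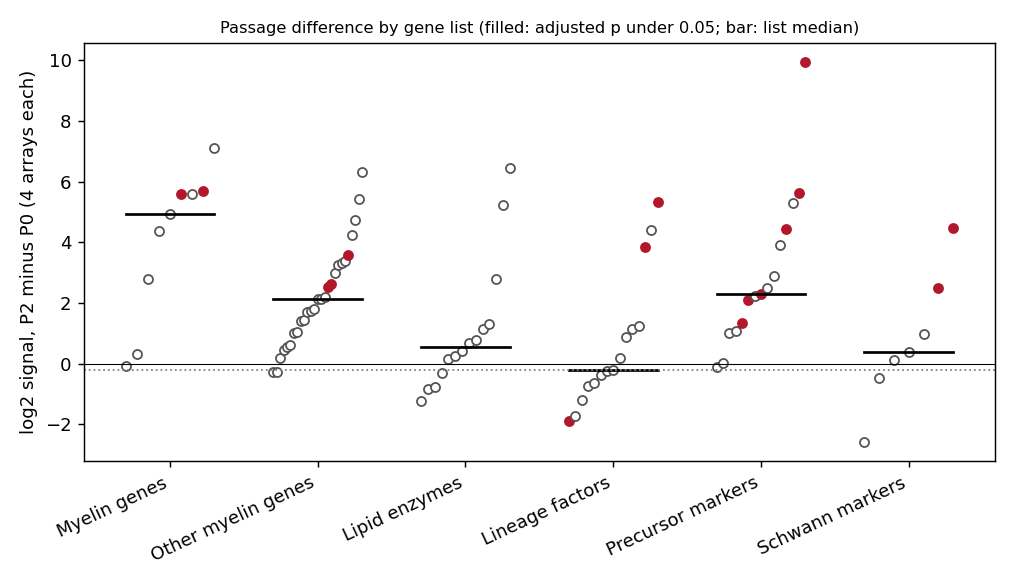
Log2 difference between P2 and P0 (vertical axis, limma over 4 arrays each) for the tested genes of 6 lists (horizontal axis), 1 point per gene, filled where the adjusted p was under 0.05, with bars at the list medians and the dotted line at the median of all genes. The lists of myelin genes, other myelin genes and precursor markers have medians of 4.94, 2.14 and 2.30, and that of lineage factors, -0.22, lies close to the dotted line at -0.21.

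Markers of other cell types were examined beside the myelin genes. Of 10 astrocyte markers, 5 rose with passage (S100b, Ntsr2, Gjb6, Aldh1l1 and Aldoc). S100b and Ntsr2 were dim on every P0 array, and were at least 160-fold and 55.6-fold higher. Gjb6, well above background on 1 P0 array, was at least 13.4-fold higher. Their summed signal was 59.9 to 424 in P2 arrays, against 14.4 to 19.3 in P0 arrays, and all 10 were at least 2-fold lower with shNr2f1/2 than with shCont at P2 (sum 59.9, against 161). S100b is also made by cells of the oligodendrocyte lineage. Of 6 fibroblast and meningeal markers, 3 rose (Col1a1, Foxc1 and Col1a2), with sums of 27.8 to 58.7 in P2 arrays against 5.41 to 20.1 in P0 arrays. Of 11 Schwann cell markers, 7 were tested and 2 rose (Egr2 and Cdh19), while Foxd3 and Pmp2 were well above background on no array. Cdh19 was dim on every P0 array, and its bound was at least 1.78-fold. The summed Schwann signal was 6.40 to 10.8 in P2 arrays, against 5.57 to 8.35 in P0 arrays. Of the 7 tested, 3 were at least 2-fold lower with shNr2f1/2 at P2 (Pmp22, Egr2 and Dhh) and 2 higher (Cdh19 and Pou3f1). Pou3f1 differed by -2.59 ± 0.68 on the log2 scale between the passages (SE, 4 arrays each; limma, adjusted p = 0.0689). The part of these cell types in the myelin gene values was not tested.

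The genes with the pattern most like each member were found by the root mean square difference over the 8 arrays after each gene was centred on its own mean, among 15210 genes, for the 7 members well above background on at least 4 arrays. Nearest to Mag were Agt (0.407 on the log2 scale), Aspa (0.558) and Rnase1 (0.653), and the nearest member was Cldn11 (0.684). Aspa encodes aspartoacylase of oligodendrocytes, and Agt encodes angiotensinogen. Cnp had Fbxo2 (0.357), Bace2 (0.456) and Clec3b (0.497) nearest, and Cldn11 had Rdh5 (0.530), Olfml1 (0.582) and Tmem212 (0.586). Ugt8a had Hsdl2 (0.316), Slc25a42 (0.352) and Ednrb (0.377), and Omg had Krtap11-1 (0.510), Sox8 (0.523) and Slc30a10 (0.575). Among the members with small differences, Mog had Ston1 (0.137), Bin1 (0.151) and Clic3 (0.154) nearest, and Mbp had Myo19 (0.136), Guca2a (0.141) and Nrip1 (0.148). These distances describe 8 arrays that share 1 slide.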

How the data were processed

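Total RNA of 8 cultures was labelled with Cy3 and hybridised to Agilent SurePrint G3 mouse arrays on 1 slide, per the file headers. Images were read with Agilent Feature Extraction 10.7.3.1, per the submitters' processing notes. Per the file headers, the deposited intensity of a spot had been corrected for background and spatial trend by the authors' software, which puts surrogate values at dim spots. The authors' deposited table holds signal, the same intensity over a constant that differs between arrays (481 to 949, relative deviation at most 1.4e-06). It is linear, was not centred by gene (column medians 0.0662 to 0.124), and the choice of constants is not stated.

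Control spots and 1104 outlier spots were left out of 62976 spots per array, leaving 55653 probes. From log2 intensity, each array's log2 75th percentile was subtracted. The upper quartile was 530 to 1065, 57.9% to 67.9% of non-control spots were well above background, none was saturated, and 399 probes printed 10 times had a median coefficient of variation of 5.96% to 6.55%. The number of arrays limits the precision. Genes detected above background in 2 or more of the 8 arrays were tested (27120), each by its probe with the highest mean. The filter kept all 9 members, of which 6 were well above background on every array. Mal and the main Mobp probe passed it through 3 P2 arrays and no P0 array, so their fits used dim P0 values as measured. Of the companion genes called, Gpr17, S100b, Ntsr2 and Cdh19 were likewise detected only at P2.

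The model of limma 3.58.1 (R 4.3.3) held condition and passage (3 residual degrees of freedom, 2.19 prior), and with interactions in a second fit (1 residual, 3.03 prior). In that second fit shCont and miRCont shared 1 passage term. Benjamini-Hochberg adjusted p under 0.05 over all genes was called, two-sided. The scripts were tested on simulated data. Single arrays were compared with no test, at 2-fold. Where the lower side was not well above background, each dim value was raised to the lowest detected signal of its array where it lay below that, and the fold is given as "at least". Summed signals of a list add probes of different scale and serve only to compare arrays.

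The members and the 15 companion lists were chosen with earlier results of these data known. All members are named on every array. From a companion list up to 4 genes with the largest passage difference and 4 with the largest knockdown difference at P2 were named, with any gene of the lists of other myelin genes and lineage factors, and 3 nearest genes per member, leaving out placeholder names. Genes behind some counts of 5 or fewer and the precursor markers that passed were also named, after their values were seen. Alternatives were quantile normalization, normexp (offset 50) for the background, other filters, probe means, the authors' table, a trended prior, no condition block, each vector system or the controls alone, and each array left out. Added after seeing the data were the other Mbp probe, every probe as its own row, and leaving out both Nr2f1/2 shRNA arrays. Probe coordinates are mm9, per the file headers, and promoter and miRNA coordinates are GRCm38.p6. Some genes of the companion lists are not reported here.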

Additional observations from a re-analysis of the deposited data

Results flagged for a closer look

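Mog moved in opposite directions in the 2 vector systems. The P2 array was above the P0 array by 0.93 with miR-17 and 0.77 with miRCont on the log2 scale, and below it by 0.35 with shNr2f1/2 and 0.12 with shCont. The mean passage difference of the miRNA arrays less that of the shRNA arrays was 1.08 on the log2 scale. The difference was not tested, and vector system cannot be told apart from position on the slide.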

How the results depend on the processing

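Of 178 recalculated passage differences of single members, 133 kept their direction and side of the threshold, 22 newly passed, 16 no longer passed and 7 changed sign. The sign changes were Mbp with the mean of its probes (1.60), with control conditions only (0.0131), with shRNA arrays only (0.0726), without either miR-17 array (0.0982) and by probe A_52_P329451 (5.07), and Mog with shRNA arrays only (-0.23). With 1 array left out the Mbp difference ran from -0.17 to 0.0982. The number of members called, 2, was 4 with normexp, 0 with control conditions only, 0 with shRNA arrays only, 8 with miRNA arrays only, 6 without both Nr2f1/2 shRNA arrays and 0 to 6 with 1 array left out. The number of genes called, 1348 (52.6% higher), was 7013 with normexp (30.7% higher), 1422 with quantile normalization (66.2% higher, median of all genes -0.02), 3653 with a filter on all 8 arrays (42.3% higher), 2024 with probe means, 4299 with a trended prior (41.9% higher), 3908 with no condition block, 0 with control conditions only (5724 at an unadjusted p under 0.05 in limma), 0 with shRNA arrays only (5008), 13739 with miRNA arrays only (38.2% higher) and 4783 without both Nr2f1/2 shRNA arrays. With 1 array left out it was 0 to 4783, and by the additive fit's construction the other array of that condition then carries no weight. Where a cause is not named here, it was not tested. For single arrays, normexp took the count of members 2-fold higher with miR-17 at P0 from 1 to 0, and likewise that with miRCont against shCont at P0. The tests of knockdown, miR-17 and both interactions called 0 members under every alternative run. Leaving out an array could not be run for the interaction fit, which then has no residual degrees of freedom. The passage fit compares P2 with P0 within each condition. No paired analysis was possible by replicate number because the labels carry none. Dim signals limit Mal, the main Mobp probe and, outside miR-17, Omg at P0 to bounds. The bounds on their passage differences were 5.34, 3.79 and 5.11 on the log2 scale. With normexp the fitted differences of Mal, Mobp and Omg were smaller, at 4.36, 3.20 and 3.37, so the bounds depend on the background correction.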

Other observations

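Other companion lists were compared in the same fit (limma, adjusted p under 0.05). Of 10 reported inhibitors of oligodendrocyte differentiation, 2 rose with passage (Gpr17 and Bmp4) and 1 fell (Jag1, a Notch ligand, by 1.70 ± 0.22 on the log2 scale; SE, 4 arrays each; limma, adjusted p = 0.0366). Of 8 receptors and partners of the growth inhibitors Mag and Omg, 7 were tested, none rose and Tnfrsf19 fell by 1.11 ± 0.17 (SE, 4 arrays each; limma, adjusted p = 0.0425). Rtn4r, the Nogo receptor that binds Mag and Omg, differed by 0.18 ± 0.33 between the passages, and Pirb was well above background on no array.

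Of 10 neuron markers, none rose and Elavl4 fell by 2.12 ± 0.35 on the log2 scale (SE, 4 arrays each; limma, adjusted p = 0.0437). None of these was 2-fold different with shNr2f1/2 at P2. Of 5 epithelial markers Cldn6 fell, and of 6 pluripotent cell markers Zfp42 fell. Of 8 neural stem markers Fabp7, also made by radial glia, rose by 1.31 ± 0.21 (SE, 4 arrays each; limma, adjusted p = 0.0428). Nes went the other way without passing the test, by -1.80 ± 0.54 (SE, 4 arrays each; limma, adjusted p = 0.0806). The median of these markers was 0.30 on the log2 scale. None of the 4 microglia and blood markers or of the 3 endothelial markers tested passed in either direction, and Cx3cr1 and Tek were well above background on no array.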
